A study of Mus musculus with 12 samples.

Results

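The unfolded protein response and the integrated stress response were followed in gonadal fat of lean and obese mice through 10 genes: Atf3, Atf4, Atf5, Ddit3, Sesn2, Chac1, Trib3, Asns, Hspa5 and Xbp1. They were taken by gene symbol from both deposited count tables, and all 10 were found there, of 32772 genes listed in either table and 28008 listed in both. RNA was sequenced from 12 libraries of C57BL/6N mice, 3 in each of 4 groups. From an age of 6 weeks, mice ate either chow (Chow) or high-fat food (HFD) for 18 weeks. Chow 8, 17 and 19 and HFD 4, 30 and 38 carry no treatment in the labels. HFD PCN 5, 11 and 27 came from obese mice on the high-fat diet that were injected intraperitoneally with PCN, a ligand of the mouse pregnane X receptor, at 50 mg/kg once a day for 4 days. HFD Vehicle 23, 50 and 55 received the carrier, 30% DMSO in corn oil, on the same schedule. The numbers name libraries. Since no label states that every library is its own mouse, a p-value here refers to the spread between libraries, which may be technical.

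The unfolded protein response is the reaction of the endoplasmic reticulum to unfolded protein. Its sensors IRE1, PERK and ATF6 raise chaperones such as the product of Hspa5 and splice the messenger RNA of Xbp1. PERK and other kinases also phosphorylate eIF2alpha, which slows translation in general and favours translation of Atf4, Atf5 and Ddit3. This second arm is the integrated stress response, and amino acid shortage can start it without any stress of the endoplasmic reticulum. ATF4 and its partners then activate genes such as Asns, Chac1, Sesn2 and Trib3. Gene counts record transcript level only: they show neither Xbp1 splicing, nor phosphorylation, nor protein.

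Library totals ran from 11090117 to 27408092 counts. Mitochondrial ribosomal RNA took 6.05% to 28.7% of the counts in Chow, 7.49% in HFD Vehicle 50 and at most 2.54% in the other HFD-fed libraries, which lowers the CPM (counts scaled to a fixed library total) of all other genes in Chow. Folds were therefore taken from edgeR, which rescales the libraries by trimmed means. The labels give duodenum as the source while the title names fat. Of 4 intestinal markers, Epcam reached at most 0.291 CPM, Cdh17 0.361 CPM and Vil1 2.80 CPM, while Lgals4 lay at 29.4 to 37.1 CPM in Chow and 9.08 to 9.37 CPM in HFD. Vil1 and Lgals4, the 2 that could be tested, were both called lower in HFD. The adipocyte lipid carrier Fabp4 lay between 2842 and 7872 CPM. Cell makeup moved with diet. Summed over 7 macrophage markers, Chow libraries held 311 to 1164 CPM and HFD libraries 6118 to 6753 CPM, and all 7 were called higher in HFD. Over 7 adipocyte markers the sums were 15209 to 25082 CPM in Chow and 10815 to 12362 CPM in HFD, with 6 of 7 called lower. In bulk tissue, fewer cells of a type and less RNA per cell cannot be told apart. HFD Vehicle 50 stood apart from its group: its macrophage sum was 725 CPM, against 5071 CPM in HFD Vehicle 23 and 5518 CPM in HFD Vehicle 55. Results that rest on it are given with and without it.

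Promoter sequence is shown for the members whose upstream DNA holds a motif that factors of these pathways bind, since the same members differ in how they moved. The 250 bases upstream of each RefSeq start (GRCm38.p6) were searched on both strands for 4 motifs, and all 10 members had an entry. The C/EBP-ATF composite element, TTNCATCA, bound by ATF4 dimers, occurred in 3.45% of all 32851 promoter entries. The cyclic AMP response element TGACGTCA occurred in 1.55%, the core TGACGTGG of the unfolded protein response element in 0.563%, and the ERSE bound by ATF6 with NF-Y in 0.113%. Members with a match were Atf3, Chac1 and Asns for the composite element and Hspa5 for the ERSE. Capitals mark the match in the following stretches, each read 5′ to 3′ on the strand of the gene.
Atf3 (chr1:191183376-191183503, minus strand, no annotated exon): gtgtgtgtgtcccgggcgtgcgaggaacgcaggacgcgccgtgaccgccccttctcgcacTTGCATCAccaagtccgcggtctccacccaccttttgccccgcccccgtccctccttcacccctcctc
Chac1 (chr2:119350992-119351116, plus strand, no annotated exon): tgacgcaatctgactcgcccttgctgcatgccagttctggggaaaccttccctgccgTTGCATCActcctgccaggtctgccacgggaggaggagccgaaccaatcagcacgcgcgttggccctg
Asns (chr6:7693214-7693243, minus strand, in an annotated exon of a longer transcript): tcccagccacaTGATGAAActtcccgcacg
Hspa5 (chr2:34772020-34772048, plus strand, in an annotated exon of a longer transcript): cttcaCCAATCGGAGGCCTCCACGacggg
The Atf3 match lies from -110 to -103 relative to the RefSeq start and the Chac1 match from -193 to -186, with the same 8 letters. The Asns match lies from -23 to -16 on the opposite strand, and the ERSE of Hspa5 from -65 to -47. The composite element thus occurred upstream of a gene that was higher in HFD (Atf3) and of 2 that were lower (Chac1 and Asns). A match is a description of these letters and not a bound site, and no match in the other 6 members says only that the letters are not in this window.

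In HFD against Chow, 3 members were higher (Atf3, Atf4 and Hspa5), 4 were lower (Sesn2, Chac1, Asns and Atf5) and 3 did not pass the test (Ddit3, Trib3 and Xbp1). Calls are edgeR quasi-likelihood tests at a Benjamini-Hochberg adjusted p under 0.05 over all 16216 genes tested. Diet moved much of the transcriptome: 29.8% of the genes tested were called higher and 30.0% lower, so the members' 3 of 10 and 4 of 10 lie near that background. The members' median log2 fold change was -0.14, and that of all genes -0.03. The authors' deposited table called the same 7 members. Library ranges in plain CPM did not overlap for Atf3, Atf4, Ddit3 and Hspa5, which were above Chow in every HFD library, as were 42.4% of the genes tested. Sesn2, Chac1 and Asns were below Chow in every HFD library, as were 23.1% of genes.

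**Figure D1:**
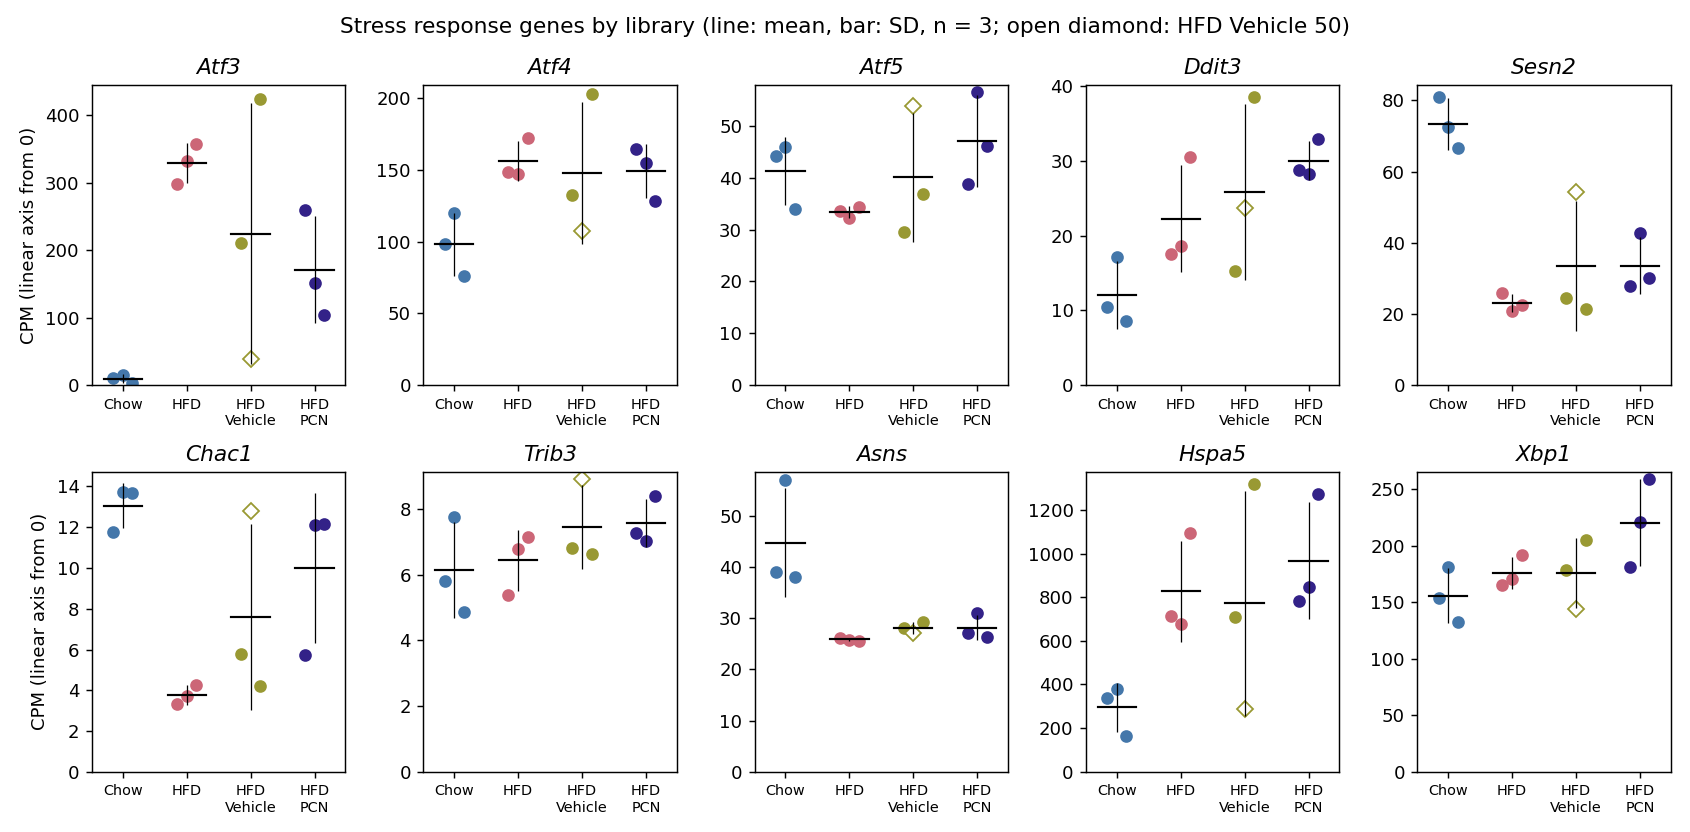
CPM of each gene (y axis, linear from 0) in the 12 libraries, by group on the x axis; points are libraries, horizontal lines group means, vertical bars SD (n = 3), and the open diamond is HFD Vehicle 50. Atf3 reached at most 14.9 CPM in Chow and at least 299 CPM in HFD, while Sesn2 and Chac1 ran the other way.

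Among the transcription factors, Atf3 (ENSMUSG00000026628, chr1:191170296-191218039, minus strand, GRCm38) had the largest diet difference of the 10. It encodes a stress-induced bZIP factor that ATF4 activates and that is also an immediate early gene of inflammatory signalling. Its level was 11.1, 14.9 and 2.65 CPM in Chow 8, 17 and 19, and 299, 332 and 358 CPM in HFD 4, 30 and 38. Every HFD library was thus far above every Chow library. The edgeR log2 fold change was 4.89 ± 0.43 (SE), a 29.6-fold rise, with an edgeR adjusted p of 4.79e-05. Immediate early genes, measured as a handling list of 10, summed to 247 to 368 CPM in Chow and 418 to 441 CPM in HFD, with 3 called higher and 2 lower. The sum hides unlike members, named after their values were seen. Jun was at 81.0 to 234 CPM in Chow and 83.4 to 106 CPM in HFD. Fos was at 4.53 to 29.4 CPM in Chow and 79.0 to 88.7 CPM in HFD, and Junb at 10.5 to 13.3 and 47.3 to 56.3 CPM. The macrophage marker Adgre1 went from 21.0 to 74.1 CPM in Chow to 935 to 986 CPM in HFD. The part of macrophage content or of handling in the Atf3 difference was not tested.

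Atf4 itself (ENSMUSG00000042406, chr15:80255184-80257541, plus strand), the main effector of the integrated stress response, differed little in transcript level. It stood at 98.1, 120 and 76.3 CPM in Chow 8, 17 and 19 and at 149, 147 and 172 CPM in HFD 4, 30 and 38. The HFD libraries were all higher, by a log2 fold change of 0.42 ± 0.14 (edgeR adjusted p = 0.0285). This call was lost under upper quartile scaling (log2 0.32, edgeR adjusted p = 0.0592), in one fit of all 12 libraries (0.46, adjusted p = 0.104), and when Chow 19 or any one HFD library was left out. Across all alternatives the adjusted p of Atf4 ran from 0.0071 to 0.107.

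Atf5 (ENSMUSG00000038539, chr7:44812256-44816658, minus strand), a factor linked to the mitochondrial stress response, went the other way. Its Chow libraries held 44.2, 46.0 and 33.9 CPM and its HFD libraries 33.6, 32.3 and 34.4 CPM. The ranges overlap in plain CPM, since HFD 38 was above Chow 19. With mitochondrial genes left out of the totals they did not, at 47.7 to 51.4 CPM in Chow and 33.1 to 35.2 CPM in HFD. After rescaling Atf5 was lower in HFD, with a log2 fold change of -0.56 ± 0.10 (edgeR adjusted p = 0.0015); the call was lost in one fit of all 12 libraries (log2 -0.52, adjusted p = 0.0672, range over alternatives 2.44e-05 to 0.0672).

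Ddit3 encodes CHOP, the factor that links prolonged stress to cell death (ENSMUSG00000025408, chr10:127290774-127296288, plus strand). It was at 10.4, 17.2 and 8.63 CPM in Chow and at 17.6, 18.7 and 30.5 CPM in HFD. All HFD libraries were above all Chow libraries in plain CPM. With mitochondrial genes left out of the totals the ranges overlapped, at 11.2 to 19.2 CPM in Chow and 18.1 to 31.2 CPM in HFD. The difference did not pass the test (log2 0.63 ± 0.28, edgeR adjusted p = 0.0829). It was called with no filter on low counts (0.70, adjusted p = 0.00703) and without Chow 17 (0.93, adjusted p = 0.0230), and its adjusted p ran from 0.00703 to 0.280 over the alternatives. Other annotated genes, Mars among them, cover 10.9% of its exon bases, so its count is uncertain.

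The IRE1 target Xbp1, which encodes the XBP1 transcription factor (ENSMUSG00000020484, chr11:5520659-5525893, plus strand), did not pass the test either. Its libraries ran from 133 to 181 CPM in Chow and from 165 to 192 CPM in HFD, and the ranges overlapped. The log2 fold change was -0.08 ± 0.13 (edgeR adjusted p = 0.589). Here the plain CPM means pointed the other way, at 156 ± 24.5 CPM (SD, n = 3) in Chow and 176 ± 14.3 CPM in HFD, so that the sign depends on the scaling.

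Hspa5 encodes BiP, the main chaperone of the endoplasmic reticulum and the standard readout of the unfolded protein response (ENSMUSG00000026864, chr2:34771970-34777547, plus strand). Chow 8, 17 and 19 held 338, 381 and 166 CPM, and HFD 4, 30 and 38 held 714, 675 and 1093 CPM. No HFD library fell within the Chow range. The log2 fold change was 1.27 ± 0.27, a 2.41-fold rise, with an edgeR adjusted p of 0.00411. The 3 genes whose pattern over the 12 libraries was most like that of Hspa5, among 4576 genes of sufficient level and spread, were Manf, Creld2 and Pdia3. Their mean absolute differences of centred log2 CPM were 0.12, 0.17 and 0.20. Manf and Creld2 encode secretory pathway proteins raised by stress of the endoplasmic reticulum, and Pdia3 a disulphide isomerase. For Atf4 the closest of 10097 genes were Ythdf2 (0.091), Cpeb4 (0.091) and Ggta1 (0.092). Ythdf2 encodes an RNA methylation reader and Cpeb4 a translation regulator.

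Sesn2, Chac1, Asns and Trib3 are effector genes that ATF4 is known to activate. Of these 4, none was called higher in HFD and 3 were called lower, against 29.8% higher and 30.0% lower over all genes tested. The 4 are a chosen part of the members, too few to be set against those shares. Atf3, which ATF4 also activates, was called higher, and Ddit3 was not called (log2 0.63). The part of the shift in adipocyte and macrophage markers in these differences was not tested. Sesn2 (ENSMUSG00000028893, chr4:132492032-132510501, minus strand) encodes a leucine sensor that restrains mTORC1. It stood at 81.1, 72.5 and 66.6 CPM in Chow 8, 17 and 19 and at 25.8, 20.7 and 22.4 CPM in HFD 4, 30 and 38. These ranges are far apart, with a log2 fold change of -1.93 ± 0.12, which is 3.82-fold lower (edgeR adjusted p = 1.32e-05).

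Chac1 (ENSMUSG00000027313, chr2:119351229-119354381, plus strand), which encodes an enzyme that degrades glutathione, fell as far. Its Chow libraries held 11.8, 13.7 and 13.7 CPM and its HFD libraries 3.32, 3.72 and 4.27 CPM. The log2 fold change was -2.07 ± 0.20, or 4.21-fold lower (edgeR adjusted p = 7.86e-05).

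Asns (ENSMUSG00000029752, chr6:7675169-7693254, minus strand) encodes asparagine synthetase, the textbook ATF4 target of amino acid shortage. It was at 39.1, 57.1 and 38.1 CPM in Chow and at 26.1, 25.8 and 25.7 CPM in HFD. The HFD libraries were nearly equal and all below Chow, by a log2 fold change of -1.05 ± 0.16, or 2.07-fold (edgeR adjusted p = 7.32e-04).

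Trib3 (ENSMUSG00000032715, chr2:152337422-152344032, minus strand), which encodes a pseudokinase that binds ATF4 and AKT, did not pass the test. It was at 5.82, 7.76 and 4.87 CPM in Chow and at 5.39, 6.79 and 7.15 CPM in HFD, with a log2 fold change of -0.19 ± 0.20 (edgeR adjusted p = 0.443). As for Xbp1, its plain CPM means (6.15 ± 1.47 CPM in Chow and 6.44 ± 0.93 CPM in HFD) pointed the other way.

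Asns, Atf3, Chac1, Hspa5 and Sesn2 were called in each alternative run for this comparison, the leave-one-out fits included.

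**Figure D2:**
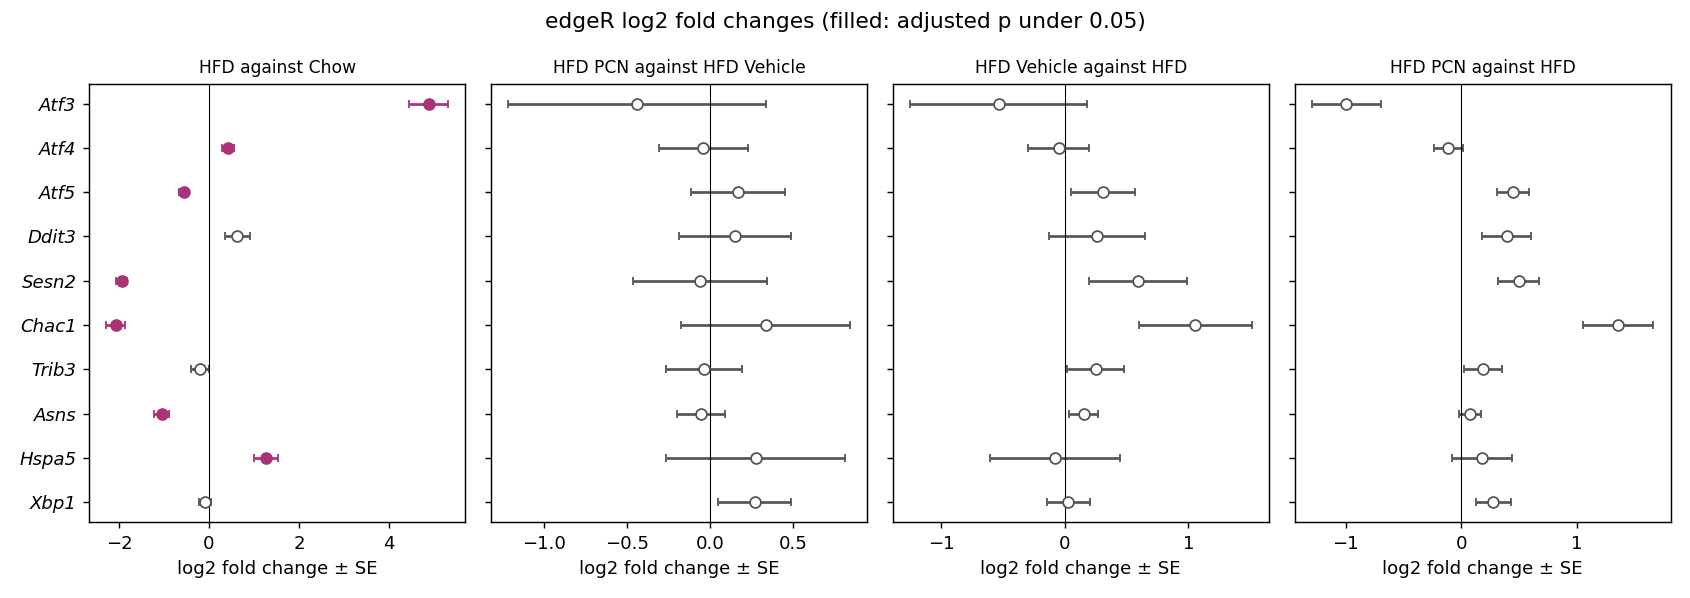
edgeR log2 fold change with its SE (x axis, a different scale in each panel) of the 10 genes (y axis) in 4 comparisons of 3 against 3 libraries; filled points have an adjusted p under 0.05. Filled points occur in HFD against Chow only: 3 to the right of 0 and 4 to the left.

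Compared per kilobase of exon, the order of the members changed with diet. In Chow, Hspa5 was highest at 69.7 ± 27.0 CPM per kb (SD, n = 3), followed by Xbp1 at 48.0 ± 7.54 and Atf4 at 41.6 ± 9.30, and the SD ranges of neighbours in this order overlapped. Atf3 had rank 9 of the 10 at 4.44 ± 2.92 CPM per kb, above Trib3 at 2.89 ± 0.69, again within the spread. In HFD, Hspa5 kept rank 1 at 196 ± 54.7 CPM per kb, and Atf3 had rank 2 at 153 ± 13.8, within the SD range of Hspa5. Atf4 (66.2 ± 5.90) and Xbp1 (54.2 ± 4.41) followed, and their SDs did not overlap. Atf5, Ddit3, Asns and Sesn2 came next, from 16.8 down to 6.61 CPM per kb. Sesn2 went from rank 4 to rank 8 and Chac1 from rank 7 to rank 10, at 2.30 ± 0.29 CPM per kb. By group means Atf3 also had rank 2 in HFD Vehicle (104 ± 89.6) and HFD PCN (79.5 ± 37.1), with SD ranges that cover the gene ranked next below it. In HFD Vehicle 50 it stood at 18.0 CPM per kb, below Hspa5 (68.3), Atf4 (45.5), Xbp1 (44.3) and Atf5 (27.0). In HFD PCN 27 it stood at 48.0, below Xbp1 (79.8) and Atf4 (54.5), while in HFD PCN 5 it was at 120.

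**Figure D3:**
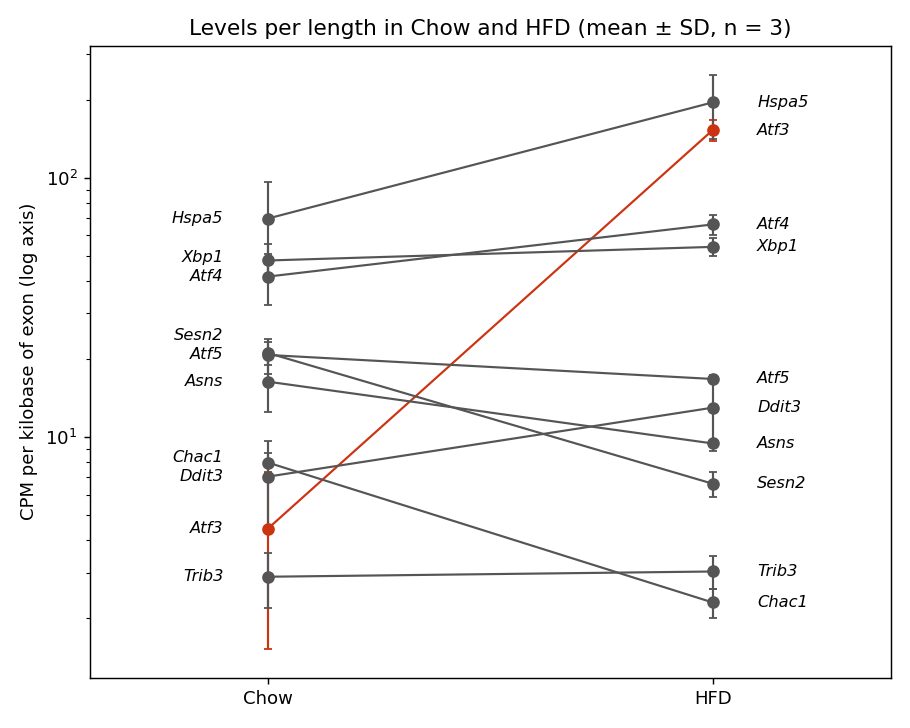
Mean CPM per kilobase of exon (y axis, log scale) of the 10 genes in Chow and HFD (x axis), with bars for SD (n = 3) and lines joining the same gene. Atf3, in red, goes from rank 9 (4.44) to rank 2 (153), while Sesn2 and Chac1 drop in the order.

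The other genes of the pathways were counted by group, to be read against the 29.8% higher and 30.0% lower over all genes tested; no test compared the groups. Among chaperones and folding enzymes of the endoplasmic reticulum, 17 of 19 tested were higher in HFD, none was lower, and the median log2 fold change was 0.79, against -0.03 over all genes. Sdf2l1, a cofactor of BiP, went from 5.98 ± 2.50 CPM (SD, n = 3) in Chow to 42.1 ± 10.8 CPM in HFD (log2 2.57, edgeR adjusted p = 8.69e-05). Dnajb11, a BiP co-chaperone, went from 32.1 ± 8.79 to 97.1 ± 9.09 CPM (log2 1.36, edgeR adjusted p = 7.99e-05). Ppib, a prolyl isomerase, rose by a log2 of 1.30, although 25.0% of its exon bases overlap Snx22. The 2 that did not pass, named after their values were seen, were Hyou1 (log2 0.40) and Sil1 (0.01). In one fit of all 12 libraries 11 of the 19 were called higher; over all alternatives the count ran from 11 to 18. Plasma cells, which are rich in these chaperones, had a summed marker level of 61.5 to 211 CPM over 5 markers in Chow and 316 to 466 CPM in HFD, with 3 of 4 tested called higher. Much of that rise was Sdc1, named after its values were seen, at 12.9 to 33.3 CPM in Chow, 167 to 219 CPM in HFD and 31.3 CPM in HFD Vehicle 50. Ighm overlapped between the groups (47.1 to 175 and 127 to 258 CPM). Jchain was at 30.5 CPM in HFD 4 against 2.41 and 5.41 CPM in the other 2 HFD libraries, and at 0.82 to 0.87 CPM in Chow. Igha, also named after its values were seen, was at 0.67 to 1.38 CPM in Chow and 2.46 to 9.89 CPM in HFD. Both were above Chow in every HFD library. Mzb1 was at most 1.55 CPM and at 0 in 2 Chow libraries. The part of plasma cells or macrophages in the chaperone group was not tested.

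In the degradation and translocation machinery of the endoplasmic reticulum, 12 of 17 were higher, 2 lower and 3 not called, with a median of 0.40. The translocon genes Sec61a1 (log2 0.95, edgeR adjusted p = 2.44e-04) and Sec61g (1.37, adjusted p = 0.00108) and the mannosidase-like Edem2 (0.84, adjusted p = 7.16e-04) had the smallest p. The 2 lower genes, named after their values were seen, were the ubiquitin ligase Syvn1 (-1.17) and Derl1 (-0.37). Under upper quartile scaling, in one fit of all 12 libraries, and without HFD 4 or HFD 38, 7 of the 17 were called higher, and without HFD 30, 8.

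The list of sensors of the endoplasmic reticulum, which also holds the protease gene Mbtps2, gave 4 higher and 2 lower of 9, with a median of 0.11. Atf6 rose by a log2 of 0.63 ± 0.11, from 76.9 to 141 CPM (edgeR adjusted p = 0.00144). Creb3, a related membrane-bound factor, rose by 0.67, with 20.8% of its exon bases overlapped by other genes. The 2 others called higher, chosen after their values were seen, were Eif2ak3, which encodes PERK (0.38), and the protease gene Mbtps2 (0.36, 28.4% overlapped). Creb3l2 fell by 1.19 on the log2 scale and Creb3l1, likewise named afterwards, by 0.93. Ern1, which encodes IRE1, named for that role after its value was seen, was at 0.11 and did not pass.

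The eIF2alpha kinases, phosphatase subunits and eIF2 factors gave 5 higher, 1 lower and 6 not called of 12, with a median of 0.09. Eif2s1, which encodes eIF2alpha, rose by a log2 of 0.77 ± 0.13 (edgeR adjusted p = 0.00127) and Eif2b2, a subunit of its exchange factor, by 0.63. Another subunit gene, Eif2b3, fell by 0.70 on the log2 scale. The kinase genes Eif2ak1 (0.31), Eif2ak2 (0.59) and Eif2ak3 (0.38) complete the 5, named after their values were seen. Eif2ak3 also stands in the list of sensors, so it is counted in both. Neither phosphatase subunit gene, also named afterwards, passed: Ppp1r15a was at -0.18 and Ppp1r15b at -0.37. Without Chow 8, 3 of the 12 were called lower.

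Partners of ATF4 and other stress-induced regulators gave 2 higher, 5 lower and 6 not called of 13, with a median of -0.21. The pseudokinase genes Trib1 (41.2 ± 9.33 CPM in Chow, 14.7 ± 1.94 in HFD, log2 -1.75) and Trib2 (-1.84) and the translation repressor gene Eif4ebp1 (-0.94) fell with edgeR adjusted p of 1.16e-04, 1.44e-04 and 3.21e-04. Fgf21 (-1.43) and Sesn3 (-0.90) were the other 2 lower genes, and Gdf15 (2.87) and Sesn1 (0.70) the 2 higher ones, all 4 named after their values were seen. FGF21 and GDF15 are both secreted hormones that ATF4 is known to activate, and their genes moved in opposite directions here.

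Genes of amino acid synthesis and transport that ATF4 drives gave 6 higher, 6 lower and 6 not called of 18, with a median of -0.11; these shares are close to those over all genes. Phgdh, the first enzyme of serine synthesis, fell from 278 ± 116 to 51.7 ± 5.10 CPM (log2 -2.64, edgeR adjusted p = 3.15e-05). The glutamine transporter gene Slc1a5 fell from 1516 ± 69.9 to 459 ± 22.6 CPM (-1.99, adjusted p = 2.98e-05), and the transaminase gene Gpt2 by 1.26 on the log2 scale. The cystine transporter gene Slc7a11 (2.87) and the mitochondrial folate enzyme gene Mthfd2 (1.48), named after their values were seen, were among the higher ones. Of the cytosolic aminoacyl-tRNA synthetases, which charge tRNAs with amino acids, 5 of 13 were higher and none lower, with a median of 0.16. Nars (0.96), Sars (0.62) and Tars (0.53) had the smallest p; Gars (0.52) and Aars (0.41), named after their values were seen, were the others.

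Cell death genes linked to CHOP gave 3 higher and 1 lower of 5, with a median of 0.77. Bcl2l11 (1.0 ± 0.15, edgeR adjusted p = 5.96e-04), Pmaip1 (1.26 ± 0.45, adjusted p = 0.0396) and Bbc3 (0.77, named afterwards), which encode pro-apoptotic BH3 proteins, rose. The death receptor gene Tnfrsf10b fell by 1.47 on the log2 scale. Under upper quartile scaling, and without Chow 8 or any one HFD library, 1 of the 5 was called higher. The mitochondrial folding and proteolysis list, background for Atf5, gave 1 higher, 2 lower and 5 not called of 8. Htra2, a protease gene with 43.7% of its exon bases overlapped, rose by 1.28; the protease genes Clpx and Lonp1 fell by 0.46 and 0.27 on the log2 scale. Without Chow 17 the list gave 2 higher and 1 lower, and without any one HFD library 1 lower.

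**Figure D4:**
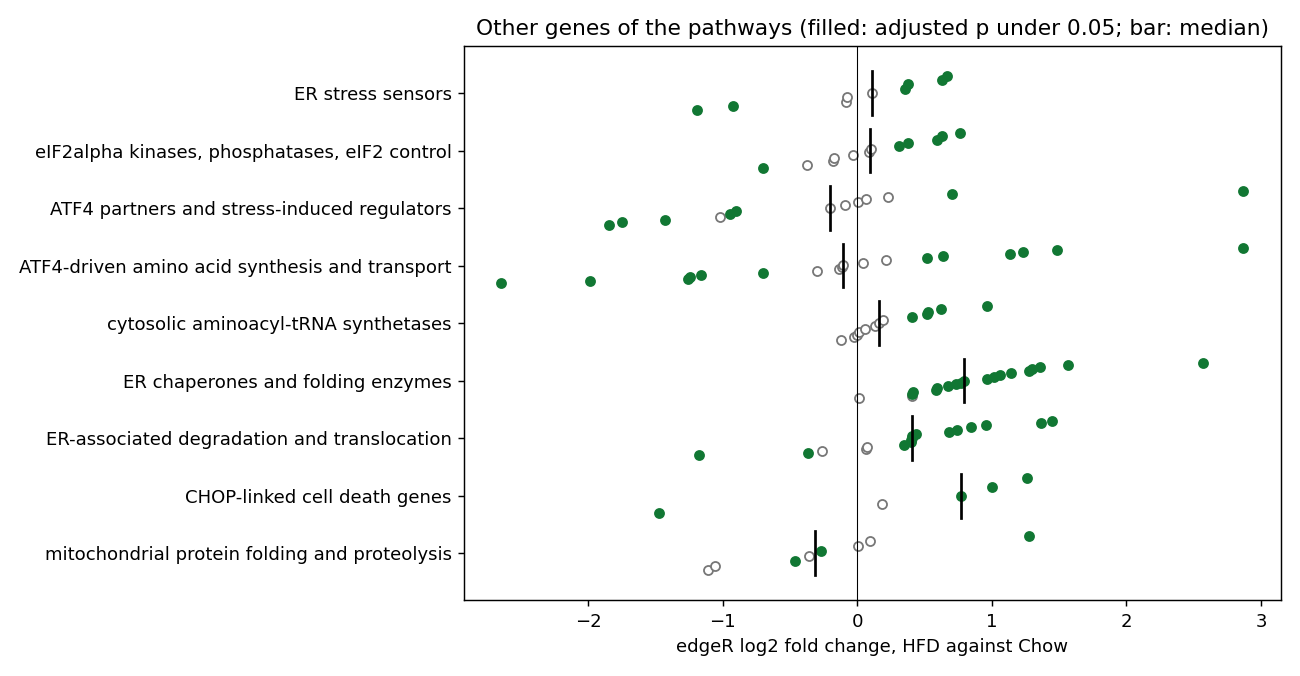
edgeR log2 fold change in HFD against Chow (x axis) of the other genes of 9 pathway groups (y axis); each point is a gene, filled where its adjusted p is under 0.05, and the bar is the group's median. Chaperones lie to the right of 0 with a median of 0.79, whereas the regulator and amino acid lists spread to both sides.

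PCN against vehicle in obese mice is the comparison that isolates the compound, and no member passed it. Counts were simulated without shifts shared by many genes of a library. In them, 2-fold changes were recovered in 1% of cases for this comparison and 6% for vehicle against HFD. Changes of 4-fold were recovered in 57% and 76%. A missing call in either therefore does not show that a gene stayed the same. None of the 16563 genes tested by edgeR was called (0.0%), with 281 at an unadjusted p under 0.05 and a smallest adjusted p of 0.9999. DESeq2 called 2 genes and limma-voom 0, and the authors' deposited table called 2, none of them a member. Library ranges overlapped for all 10 members, as they did for all but 6.82% of the genes tested. Hspa5 was at 708, 289 and 1317 CPM in HFD Vehicle 23, 50 and 55 and at 781, 848 and 1274 CPM in HFD PCN 5, 11 and 27. The vehicle libraries enclosed the PCN libraries, and the log2 fold change was 0.27 ± 0.54. Atf3 stood at 211, 38.7 and 424 CPM with vehicle and at 259, 151 and 103 CPM with PCN, a log2 fold change of -0.44 ± 0.78. Both differences were smaller than their SEs.

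How far HFD Vehicle 50 set the spread in vehicle differed by gene. Without it the SD went from 517 to 431 CPM for Hspa5 and from 193 to 151 CPM for Atf3. For Sesn2 the SD went from 18.2 to 2.22 CPM and for Chac1 from 4.57 to 1.13 CPM. That of Atf4 hardly moved (49.5 and 49.9 CPM), and that of Ddit3 went up from 11.8 to 16.5 CPM. HFD Vehicle 50 lay outside the range of the other 2 vehicle libraries for 9 of the 10 members, Ddit3 being the exception. The share of all genes for which this holds was not counted, so the 9 of 10 has no background to be read against. For Asns the gap was small, at 27.1 CPM against 28.0 and 29.2 CPM. In plain CPM it was within the Chow range for Atf4, Chac1, Hspa5 and Xbp1, while for Ddit3 alone it was within the HFD range. With mitochondrial genes left out of the totals, its Xbp1 level (156 CPM) was below the Chow range (166 to 203 CPM). Its Chac1 level was 12.8 CPM, against 5.80 and 4.20 CPM in HFD Vehicle 23 and 55, and its Sesn2 level 54.4 CPM, against 24.6 and 21.5 CPM. Along with its low macrophage sum, it held 1161 CPM of the adipocyte hormone gene Adipoq, against 662 and 362 CPM, and 10683 CPM summed over 8 cytosolic heat shock genes, against 1702 and 6372 CPM. The PCN libraries held 2293 to 2810 CPM of these heat shock genes. Only 2 of the 8 are listed for Chow and HFD, so this sum has no counterpart in those groups. The part of these differences between libraries in the member values was not tested. Without HFD Vehicle 50, the PCN difference was a log2 of 0.95 ± 0.37 for Chac1, 0.50 ± 0.21 for Sesn2, 0.46 ± 0.20 for Atf5 and -0.95 ± 0.44 for Atf3. Their edgeR adjusted p was 0.8001 in each case, so none was called, and edgeR called no gene at all (898 at an unadjusted p under 0.05; 45 called by DESeq2). Hspa5 turned to -0.12 ± 0.36.

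**Figure D5:**
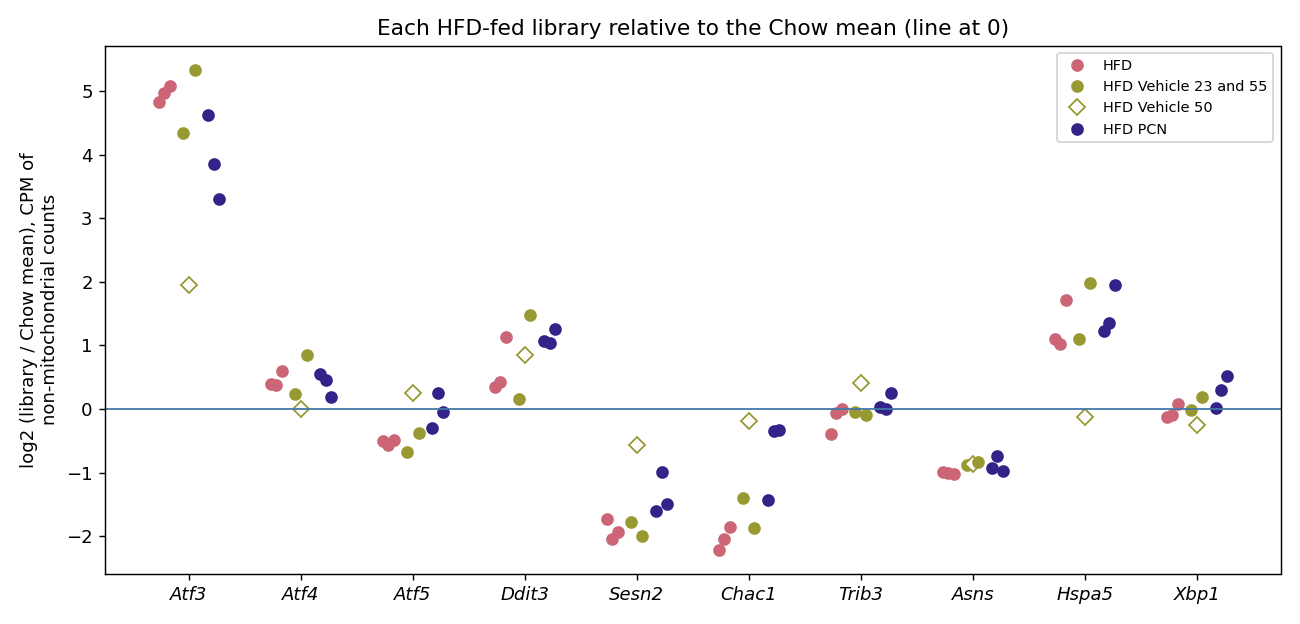
log2 ratio of each HFD-fed library to the Chow mean (y axis, CPM of non-mitochondrial counts) for the 10 genes (x axis), coloured by group, with the line at 0 for the Chow mean. HFD Vehicle 50 (open diamond) sits near 0 for Atf4 (0.0046), Hspa5 (-0.13) and Chac1 (-0.19). For Hspa5 and Chac1 it lies away from the other vehicle libraries. For Atf4 it lies nearer to HFD Vehicle 23 (0.24) than that library does to HFD Vehicle 55 (0.84).

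Vehicle-injected against untreated obese mice, which share the diet and differ in the injections, gave no call in any member or any of 16781 genes by edgeR (0.0%, with 1639 genes at an unadjusted p under 0.05 and 109 called by DESeq2). Chac1 had the largest difference of the members, 7.60 ± 4.57 CPM (SD, n = 3) against 3.77 ± 0.47 CPM, a log2 of 1.06 ± 0.46 with an edgeR adjusted p of 0.485. Without HFD Vehicle 50 it was 0.42 ± 0.21. The same omission took Sesn2 from 0.59 ± 0.39 to -0.0014 ± 0.12 and Atf3 from -0.54 ± 0.72 to -0.05 ± 0.26. Asns was the one member whose libraries did not overlap, at 27.1 to 29.2 CPM with vehicle and 25.7 to 26.1 CPM without, as for 13.4% of genes in that direction. Its log2 difference was 0.15 ± 0.12 and was not called. Without HFD Vehicle 50 edgeR called 172 genes and DESeq2 729, none of them a member. Of the pathway lists, only the transporter gene Slc7a11, named after its value was seen, was then called (log2 -1.38, edgeR adjusted p = 0.0348; -1.84 and 0.485 with the library).

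PCN-treated against untreated obese mice differ in both the compound and the injections, which cannot be told apart here, and this comparison shares its HFD libraries with the 2 comparisons of HFD above and its PCN libraries with that against vehicle. By edgeR 732 of 16927 genes, or 4.32%, were called, and none of the 10 members was, and 4 were at an unadjusted p under 0.05, as were 29.5% of the genes tested. Chac1 came closest. It was at 5.73, 12.1 and 12.2 CPM in HFD PCN 5, 11 and 27 and at 3.32 to 4.27 CPM in HFD, so that every PCN library was higher. Its log2 fold change was 1.36 ± 0.30 (edgeR adjusted p = 0.0512). Atf3 was below HFD in every PCN library, with a log2 of -0.99 ± 0.30 (adjusted p = 0.0882). Atf5 at 38.8, 56.5 and 46.1 CPM and Sesn2 at 28.0, 42.7 and 30.2 CPM were above HFD in every PCN library, with log2 values of 0.45 ± 0.14 (adjusted p = 0.0946) and 0.49 ± 0.18 (adjusted p = 0.121). Asns was the other member without overlap on the higher side. In that direction 22.2% of the genes tested did not overlap, and 14.6% in the lower.

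These calls depended on the settings. DESeq2 called Atf3 and Chac1, and Chac1 was called with no filter on low counts or with upper quartile scaling. Leaving out HFD PCN 5 gave calls for Atf3, Atf5, Chac1, Sesn2 and Xbp1 and raised the count of genes from 732 to 5167, whereas leaving out HFD 4 or HFD 38 gave no gene, HFD 30 1 gene, HFD PCN 27 4 genes and HFD PCN 11 670 genes. HFD PCN 11 had the lowest macrophage sum of its group, 2426 CPM against 5556 CPM in HFD PCN 5 and 5573 CPM in HFD PCN 27. Its adipocyte sum was the highest, at 17513 CPM against 10177 and 11606 CPM. It also had the highest Atf5 and Sesn2 of the PCN libraries. Chac1, however, was as high in HFD PCN 27 (12.2 CPM) as in HFD PCN 11 (12.1 CPM). Atf3 was lowest in HFD PCN 27, at 103 CPM against 151 CPM in HFD PCN 11 and 259 CPM in HFD PCN 5. Over 5 mesothelial markers the sums were 48.0 to 88.1 CPM in HFD PCN and 6.67 to 25.5 CPM in HFD, with none of the 5 called. Lgals4 was called higher in HFD PCN (log2 1.24, edgeR adjusted p = 0.0237). The part of macrophage, adipocyte or mesothelial content in these values was not tested. Among the pathway lists, 3 genes of the list of ATF4 partners and stress-induced regulators were higher: Trib2 (0.79 ± 0.13, edgeR adjusted p = 0.0289), Sesn3 (0.58 ± 0.10, adjusted p = 0.0336) and, named after its value was seen, Fgf21 (1.31 ± 0.27, adjusted p = 0.043, at 2.07 against 0.82 CPM). The other 8 pathway lists had no call in this comparison, and none of the 9 had one in PCN against vehicle.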

How the data were processed

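RNA-seq read counts per gene were deposited in 2 tables, HFD with Chow and HFD PCN with HFD Vehicle, each also holding the authors' log2 fold changes and adjusted p-values (other units, written with decimal commas). The submitters' processing notes name HISAT2, HTSeq, DESeq2 and GRCm38 (mm10), with versions and strand setting not given in the sources used here. Without a stated strand setting, overlapping genes cannot be separated. CPM is the count over its library's total in its own table. Tests used edgeR 4.0.16 in R 4.3.3 (quasi-likelihood, TMM scaling, filterByExpr, Benjamini-Hochberg adjustment at 0.05), fitted to the 6 libraries of each comparison. They were also run on simulated counts in which 200 genes above 5 CPM were changed and all others left alone. Each gene was drawn separately with its own fitted dispersion. Shifts shared by many genes of a library, as in HFD Vehicle 50, were therefore not simulated. Nor were changes in as many genes as were called in HFD against Chow, so the shares may not hold in the real counts. Changes of 2-fold were recovered in 81% of cases for HFD against Chow and 84% for HFD PCN against HFD. For HFD PCN against HFD Vehicle the share was 1%, and for HFD Vehicle against HFD 6%. For 4-fold changes the shares were 99% in HFD against Chow and in HFD PCN against HFD. They were 57% in HFD PCN against HFD Vehicle and 76% in HFD Vehicle against HFD. Of the simulated calls, 4.65% to 9.38% were false. Comparisons of HFD Vehicle or HFD PCN with HFD join the 2 tables on the genes in both. The SE is the log2 fold change over the square root of F. Alternatives used limma 3.58.1 and DESeq2 1.42.0, other filters, scalings and samples; DESeq2 without HFD Vehicle 50, and mean CPM without mitochondrial genes, were chosen after seeing the data. Replicate pairs differed by more than counting noise, so none was merged. The HFD pairs were the most alike, with a chi-square per degree of freedom of 6.92 to 9.50. It was 57.1 to 208 in Chow, 33.3 to 236 in HFD Vehicle and 51.9 to 87.8 in HFD PCN. The members and gene lists were chosen with earlier results of these data known. All 10 members are named. Of each pathway list the text names up to 3 genes of smallest p among those called in HFD against Chow and up to 2 in each other comparison, and others are marked as named afterwards. Likeness to Atf4 and Hspa5 used log2 CPM with a prior count of 2 over 12 libraries, for genes with a mean of at least 5 CPM. Gene coordinates are those of GENCODE on GRCm38, and for the 10 members the same as in the deposited tables. Pancreatic, mesothelial and epididymal markers were checked too: their sums ran from 2.39 to 29.1, 6.67 to 88.1 and 0 to 0.443 CPM over the libraries.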

Additional observations from a re-analysis of the deposited data

How the results depend on the processing

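No paired analysis was possible because the groups share no replicate numbers. With 3 libraries a group, an exact permutation test of 1 gene cannot go below p = 0.1, and the libraries' number and spread limit what is detectable. For HFD against Chow, the count of genes called stayed within 1.5 times in each alternative run; upper quartile scaling shifted the median of all genes from -0.03 to -0.13 and the share higher among calls from 49.9% to 44.0%. For HFD PCN against HFD, DESeq2 called 2435 genes, no filter 1296 and one fit of all 12 libraries 0, and leaving out 1 library gave 0 to 5167; members called were 2 with DESeq2, 1 with upper quartile scaling and 1 with no filter, and 0 to 5 with 1 library left out. For HFD PCN against HFD Vehicle, DESeq2 and the authors' deposited table each called 2 genes, and DESeq2 without HFD Vehicle 50 called 45. For HFD Vehicle against HFD, DESeq2 called 109 genes, and 729 without HFD Vehicle 50; leaving out 1 library gave 0 to 172 with edgeR. Members that changed sign did so from values that were not called, and the cause was not tested. In PCN against vehicle, limma-voom gave log2 values of 0.10 for Atf3, 0.0059 for Atf4 and 0.089 for Sesn2, and no filter gave 0.0008025 for Trib3. DESeq2 without HFD Vehicle 50 gave -0.11 for Hspa5, 0.51 for Sesn2 and 0.13 for Trib3. In vehicle against HFD, no filter gave -0.016 for Xbp1, and DESeq2 without HFD Vehicle 50 gave 0.11 for Atf4, -0.0089 for Atf5, 0.30 for Hspa5 and -0.0012 for Sesn2. With 1 library left out, PCN against vehicle ranged from -0.95 to 0.42 for Atf3, -0.22 to 0.25 for Atf4, -0.023 to 0.46 for Atf5, -0.13 to 0.54 for Ddit3, -0.12 to 0.91 for Hspa5, -0.32 to 0.50 for Sesn2 and -0.13 to 0.13 for Trib3. Vehicle against HFD ranged from -0.36 to 0.11 for Atf4, -0.0097 to 0.51 for Atf5, -0.15 to 0.55 for Ddit3, -0.73 to 0.30 for Hspa5, -0.0014 to 0.82 for Sesn2 and -0.10 to 0.12 for Xbp1. PCN against HFD ranged from -0.061 to 0.43 for Hspa5, and HFD against Chow from -0.15 to 0.0053 for Xbp1.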
